A study of Mus musculus with 10 samples.

Results

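Ly6g, Mrgpra2a, Mrgpra2b, Retnlg, Mcemp1 and Adgrg3, a set of genes named for mature mouse neutrophils, were followed in blood across sleep deprivation and sleep restriction. They are 6 of the 32285 genes in the count table, all 6 found by symbol, and they were chosen with their levels in these libraries already known. Their levels and ratios are therefore given as a description, without a p-value.

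Neutrophils are short-lived granulocytes that mature in the bone marrow, are released into blood and are rapidly mobilised under stress or infection. Genes for granule proteins are transcribed in marrow precursors and are largely shut off by the time the cell circulates, whereas genes for surface receptors and cytosolic proteins of the mature cell stay on in blood. Ly6g encodes a lipid-anchored surface protein whose antibody is the usual label for mouse neutrophils, and Mcemp1 and Adgrg3 encode a transmembrane protein and an adhesion-type G protein-coupled receptor of granulocytes. Mrgpra2a and Mrgpra2b belong to the Mas-related G protein-coupled receptors, a family best known from sensory neurons and mast cells, and Retnlg encodes resistin-like gamma, a small secreted cysteine-rich protein.

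RNA came from the blood of C57/BL6J mice, with the cell type given as leukocyte. Sleep deprivation (SD) was sampled after 6, 12, 24 and 48 h, and a restriction protocol from earlier literature (SASD) after 6, 12, 24, 48 and 120 h; the control (Con) is dated 0 h. Each group was 1 library made from the pooled blood RNA of 3 mice, 500 µL of blood each, taken from behind the eye under pentobarbital. The sources used here do not give sex, age, the hour of sampling or the way in which sleep was prevented. With 1 library a group, no ratio between libraries had a replicate check, and the intervals below cover counting error alone.

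Total counts were 7825120 to 27501393 per library. Con and both 48 h libraries stood apart from the other 7: haemoglobin genes took 0.275% to 0.727% of their counts against 3.57% to 6.96%, and 15.6% to 51.0% of 1134 olfactory receptor genes had a count at equal depth against 2.09% to 3.45%. SD and SASD libraries of the same hour always lay on the same side of this split, whereas ratios over Con at 6, 12, 24 and 120 h, and the step from 24 to 48 h, crossed it. The 48 h pair was still not level: the olfactory share was 15.6% in SD and 35.1% in SASD, and total counts were 13927134 and 24818986. Their haemoglobin shares were 0.316% and 0.275%. The part of the split, or of this difference at 48 h, in the results was not tested. Genes that define other blood cells were present in every library, among them the B cell antigen receptor gene Cd79a at 757.6 to 1085 CPM and the T cell receptor subunit gene Cd3e at 95.9 to 183 CPM (CPM, counts per 1000000 counts after TMM scaling for library composition), so the label leukocyte describes a mixture. In such bulk RNA a change in the number of neutrophils and a change in RNA per neutrophil cannot be told apart.

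The upstream sequences of 4 of the genes are shown because Ly6g and Retnlg on the one hand, and the Mrgpra2 pair on the other, took different courses over time, as described below. They come from RefSeq on GRCm38.p6, which held all 6 genes, run 5′ to 3′ on the strand of the gene, and end at the first annotated transcript start near the RefSeq start. Capitals mark AGGAAG, the core bound by PU.1 and other ETS factors, and TTNNGNAA, a pattern of C/EBP sites, each searched on both strands (AGGAAG also as CTTCCT). The motifs were chosen after the sequences had been seen, and the marked matches do not overlap each other. The intervals are chr15:75155011-75155239 on the plus strand for Ly6g, chr7:47452165-47452414 and chr7:47489587-47489832 on the minus strand for Mrgpra2a and Mrgpra2b, and chr16:48872358-48872607 on the plus strand for Retnlg. The stretch of Mrgpra2b lies inside the whole annotated gene, chr7:47463806-47528862. It precedes a start within that interval, not the one at its outer end.
Ly6g: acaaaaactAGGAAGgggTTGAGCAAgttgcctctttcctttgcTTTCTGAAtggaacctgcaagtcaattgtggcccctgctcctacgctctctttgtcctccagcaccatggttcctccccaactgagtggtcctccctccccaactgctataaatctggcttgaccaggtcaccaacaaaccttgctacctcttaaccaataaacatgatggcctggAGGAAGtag
Mrgpra2a: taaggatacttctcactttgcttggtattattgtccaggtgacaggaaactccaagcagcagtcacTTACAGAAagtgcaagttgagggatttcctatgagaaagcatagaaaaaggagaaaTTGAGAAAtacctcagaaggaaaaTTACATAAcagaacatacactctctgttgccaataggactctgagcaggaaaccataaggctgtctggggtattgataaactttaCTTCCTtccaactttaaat
Mrgpra2b: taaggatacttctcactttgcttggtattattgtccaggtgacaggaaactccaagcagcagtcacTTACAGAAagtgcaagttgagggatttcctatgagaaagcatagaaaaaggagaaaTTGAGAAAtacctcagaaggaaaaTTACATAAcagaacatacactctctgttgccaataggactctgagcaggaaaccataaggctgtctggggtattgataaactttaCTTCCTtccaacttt
Retnlg: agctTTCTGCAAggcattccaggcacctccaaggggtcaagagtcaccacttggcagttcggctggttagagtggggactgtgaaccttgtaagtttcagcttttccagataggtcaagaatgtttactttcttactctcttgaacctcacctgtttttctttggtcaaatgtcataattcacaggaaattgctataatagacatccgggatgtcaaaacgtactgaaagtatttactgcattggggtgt

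The whole RefSeq windows of Mrgpra2a and Mrgpra2b, which run past the stretches printed, were identical over 300 of 300 bases, although the genes are separate, 11666 bases apart on chromosome 7 and on the same strand. AGGAAG occurred in 29.5% of 32851 whole mouse promoter windows of 300 bases and TTNNGNAA in 36.8%. Ly6g held 2 matches of each in the stretch before the start, the Mrgpra2 genes 1 and 3, Retnlg 0 and 1, Mcemp1 1 and 0 and Adgrg3 1 and 1. Such matches describe letters and show no binding.

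The near-identity of the Mrgpra2 genes also limited their counts. Of the 100-base windows of their transcripts, 73.4% of those of Mrgpra2a (837 of 1141) and 68.2% of those of Mrgpra2b (837 of 1227) also occur in the other gene, and reads that map to several places were not counted. Their levels thus rest on the remaining stretches and understate both genes, and reads between them may be divided wrongly. The share of such windows was 0% for Ly6g, Retnlg, Mcemp1 and Adgrg3.

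The question put to the libraries was how these genes behaved over the hours of SD and of SASD. All 6 were higher in SD 12, 24 and 48 h than in Con and in every SASD library, and at SD 6 h Mrgpra2a, Mcemp1 and Adgrg3 lay above those libraries too, with counting intervals that overlapped those of SASD. The highest levels were in SD 48 h for 5 genes and in SD 24 h for Mrgpra2a, which was level between 24 and 48 h. Of the 13982 genes whose counts averaged 10 or more across the 10 libraries, 690 (4.93%) had SD 12, 24 and 48 h above Con and all SASD libraries. Of the genes described here 5 reach that mean count, Mrgpra2a falling just short at 9.9, and all 5 of 5 showed the separation, for which they had been chosen. Without Con and both 48 h libraries, all 5 had SD 12 and 24 h above the remaining SASD libraries, as did 9.31% of the 13982 genes.

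**Figure D1:**
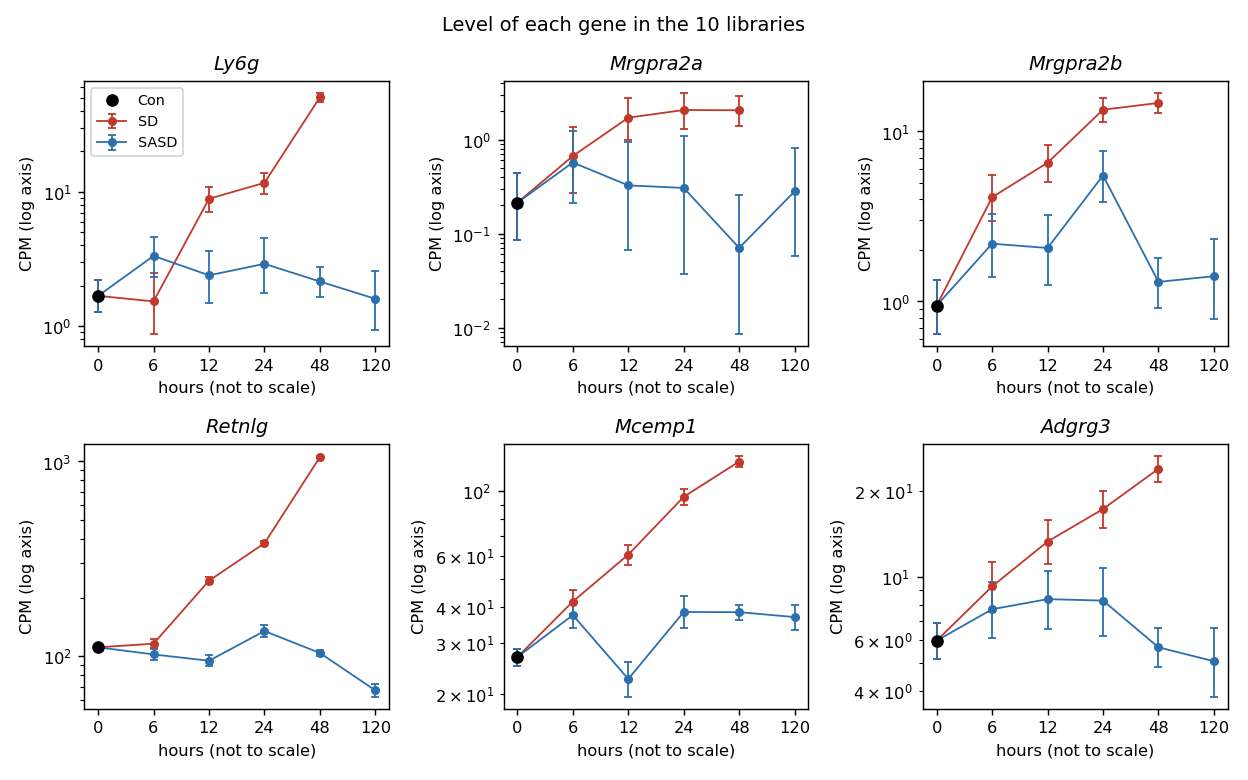
Level of each gene in TMM-scaled CPM (log axis) against hours (categories, not to scale), for Con (black), SD (red) and SASD (blue). Points are single libraries of 3 pooled mice, bars are exact Poisson 95% counting intervals, and lines join the libraries of a method to Con. SD lies above SASD after 6 h in every panel, with a last large step to 48 h for Ly6g and Retnlg and a plateau from 24 h for Mrgpra2a and Mrgpra2b.

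Of the surface markers, Ly6g (ENSMUSG00000022582, chr15:75155240-75159126, plus strand, GRCm38) stood at 1.68 CPM in Con, 1.53, 8.86, 11.6 and 50.4 CPM in SD 6, 12, 24 and 48 h, and 3.33, 2.39, 2.91, 2.15 and 1.60 CPM in SASD 6, 12, 24, 48 and 120 h. SD 6 h was the lowest of the 10 libraries and SD 48 h the highest, 33.0 times apart. The library of 6 h SD held 16 counts and that of 6 h SASD 35, a ratio of SD over SASD of 0.459 (95% counting interval 0.237 to 0.851). SD 6 h did not differ from Con beyond counting error, at intervals of 0.873 to 2.48 and 1.27 to 2.19 CPM. SASD 6 h was the highest of Con and the SASD libraries. The ratio of SD over SASD was 3.71 (2.30 to 6.22) at 12 h, 4.01 (2.46 to 6.88) at 24 h and 23.5 (18.0 to 31.0) at 48 h. Within SD, the level was 5.80 times higher at 12 h than at 6 h (3.38 to 10.6), 1.31 times higher at 24 h than at 12 h, an interval that includes no change (0.992 to 1.75), and 4.33 times higher at 48 h than at 24 h (3.57 to 5.28). The course of Ly6g under SD thus had an early and a late step, with little between 12 and 24 h.

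Adgrg3 (ENSMUSG00000060470, chr8:95017692-95045250, plus strand) was higher at each later hour of SD, in small and even steps. Its level was 5.99 CPM in Con, 9.26, 13.3, 17.3 and 23.9 CPM in SD 6, 12, 24 and 48 h, and 7.71, 8.36, 8.26, 5.67 and 5.07 CPM in SASD 6, 12, 24, 48 and 120 h. The SD libraries stood in the order of their hours, and SASD stayed within a 1.65-fold range. The ratio of SD over SASD was 1.20 (0.886 to 1.64) at 6 h, 1.59 (1.19 to 2.13) at 12 h, 2.09 (1.54 to 2.89) at 24 h and 4.21 (3.49 to 5.11) at 48 h. Each step within SD was of similar size, 1.44 (1.10 to 1.89), 1.30 (1.03 to 1.64) and 1.38 (1.15 to 1.66).

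Mcemp1 (ENSMUSG00000013974, chr8:3665754-3669259, plus strand) followed a course much like that of Adgrg3, with 26.9 CPM in Con and 41.7, 60.5, 95.7 and 126.6 CPM in SD 6, 12, 24 and 48 h. In SASD it was at 37.5, 22.6, 38.4, 38.4 and 36.9 CPM at 6, 12, 24, 48 and 120 h. SASD 12 h was the lowest of all libraries, and the other SASD libraries lay between Con and SD 6 h. SD over SASD was 1.11 (0.969 to 1.28) at 6 h, 2.68 (2.29 to 3.15) at 12 h, 2.49 (2.17 to 2.87) at 24 h and 3.30 (3.06 to 3.56) at 48 h, the smallest ratio among the 6 genes at the last time. The gene is named for mast cells, whose other genes were scarce: 6 of them summed to 12.4 CPM in Con, 6.24 to 8.45 CPM in SD 6, 12 and 24 h, 16.4 CPM in SD 48 h and 6.48 to 8.98 CPM in SASD, and the mast cell protease genes Mcpt4 and Tpsab1 were at 0 in 4 and 7 libraries. Of the 2 mast cell genes averaging 10 counts or more, 0 had SD 12, 24 and 48 h above Con and SASD. The share over all such genes was 4.93%.

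Retnlg (ENSMUSG00000022651, chr16:48872621-48874496, plus strand), the secreted product of the set, was by far the most abundant. It stood at 111.2 CPM in Con, 116.1, 244.4, 380.4 and 1053 CPM in SD 6, 12, 24 and 48 h, and 102.3, 94.9, 134.8, 104.0 and 66.8 CPM in SASD 6, 12, 24, 48 and 120 h. SD 6 h lay inside the range of Con and SASD and each later SD library above it. Its 712 to 15377 counts a library make the counting error small: SD over SASD was 1.14 (1.05 to 1.23) at 6 h, 2.57 (2.38 to 2.79) at 12 h, 2.82 (2.62 to 3.04) at 24 h and 10.1 (9.73 to 10.5) at 48 h. The largest step within SD was the last, 2.77 (2.67 to 2.87) from 24 to 48 h after 2.10 (1.96 to 2.26) and 1.56 (1.48 to 1.64). In SASD 120 h, the longest restriction, Retnlg was lowest of all libraries, at 0.654 times its SASD 6 h level (0.594 to 0.719).

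Of the receptor pair, Mrgpra2b (ENSMUSG00000096719, chr7:47463806-47528862, minus strand) went from 0.947 CPM in Con to 4.11, 6.55, 13.4 and 14.7 CPM in SD 6, 12, 24 and 48 h. SASD gave 2.19, 2.06, 5.51, 1.30 and 1.41 CPM at 6, 12, 24, 48 and 120 h. SASD 24 h, the highest SASD library, exceeded SD 6 h and came close to SD 12 h, and SD 24 and 48 h lay well above it. SD over SASD was 1.88 (1.11 to 3.26) at 6 h, 3.17 (1.88 to 5.60) at 12 h, 2.44 (1.68 to 3.62) at 24 h and 11.3 (7.94 to 16.5) at 48 h. Unlike Ly6g and Retnlg it did not step up from 24 to 48 h of SD, the ratio being 1.10 (0.883 to 1.36). The wide 48 h ratio came with SASD 48 h lying at 0.237 times SASD 24 h (0.145 to 0.385), a step that crosses the split of the libraries.

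Mrgpra2a (ENSMUSG00000093973, chr7:47426328-47452139, minus strand) was the rarest, with 2 to 30 counts a library. Its level was 0.214 CPM in Con, 0.668, 1.71, 2.07 and 2.05 CPM in SD 6, 12, 24 and 48 h, and 0.571, 0.326, 0.306, 0.0704 and 0.282 CPM in SASD 6, 12, 24, 48 and 120 h. SD 24 and 48 h were alike, at a ratio of 0.994 (0.555 to 1.81). SD over SASD was 5.26 (1.52 to 28.0) at 12 h, 6.75 (1.66 to 59.2) at 24 h and 29.2 (7.40 to 252) at 48 h, each resting on 2 or 3 counts in the SASD library. Mrgpra2a made up 13.6% of the counts of the pair over all libraries (95% Clopper-Pearson interval 11.2% to 16.3%, 99 and 627 counts), and its share in single libraries was 5.13% to 20.7%, with intervals that all include 13.6%. A change in the balance of the pair was not detectable at this depth.

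Per kilobase of exon, the order of levels in Con was Retnlg at 187.6, Mcemp1 at 18.0, Ly6g at 1.78, Adgrg3 at 0.867, Mrgpra2b at 0.710 and Mrgpra2a at 0.172 CPM per kilobase. Counting intervals of Adgrg3 (0.750 to 0.997) and Mrgpra2b (0.482 to 1.01) overlapped there, and no other neighbours in the order did. In SD 48 h the order was Retnlg at 1775, Mcemp1 at 84.7, Ly6g at 53.5, Mrgpra2b at 11.0, Adgrg3 at 3.46 and Mrgpra2a at 1.66, with no overlap between neighbours. These values divide by the whole exon length, a large share of which both Mrgpra2 genes have in common, so the places of Mrgpra2a and Mrgpra2b in the order are uncertain.

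**Figure D2:**
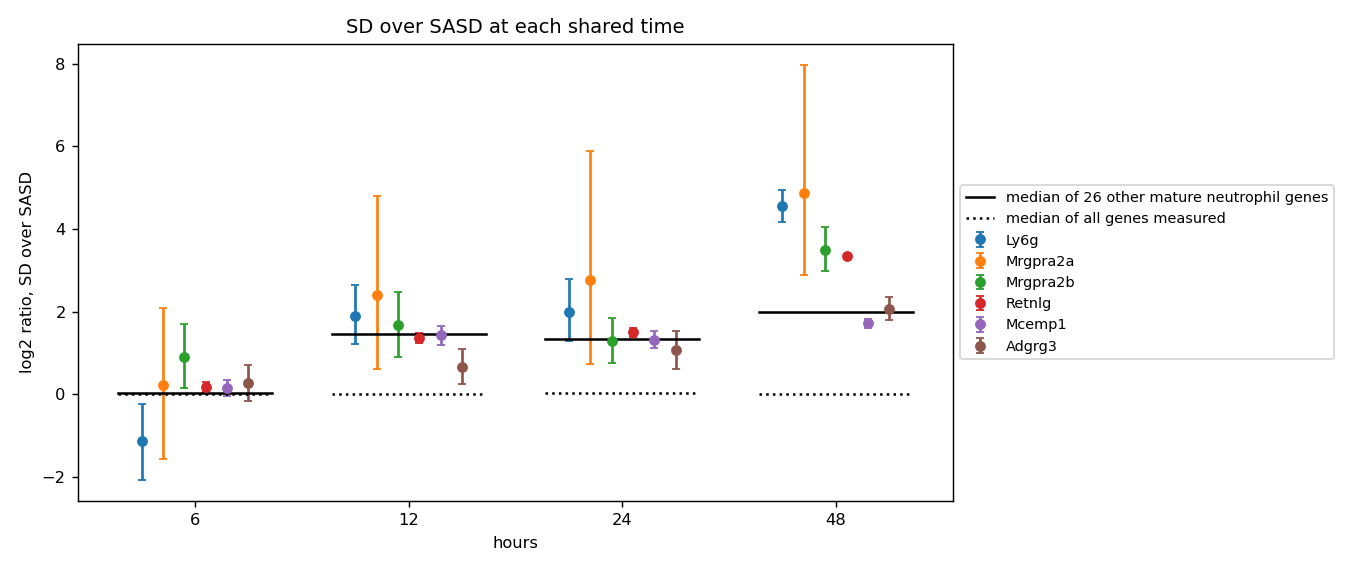
Log2 ratio of SD over SASD for each gene at the 4 hours sampled under both methods; points are ratios of single libraries and bars exact 95% counting intervals. Solid lines are medians of 26 other mature neutrophil genes and dotted lines medians of all genes measured at that hour. At 6 h Ly6g lies below both lines and Mrgpra2b above, and at 12 h Adgrg3 lies below the solid line. At 48 h Ly6g, Mrgpra2a, Mrgpra2b and Retnlg lie above the solid line, Adgrg3 lies by it and Mcemp1 lies a little below it. Points of Mrgpra2a lie above the solid line at 12 and 24 h too, with intervals that reach across it.

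To place the 6 genes among other neutrophil transcripts, lists of other genes were compared at each shared hour, counting genes with a mean of at least 25 counts in the pair of libraries and a ratio of at least 2-fold (with a prior count of 2). At 6 h, 0 of 5 of the genes described here and 0 of 26 other mature neutrophil genes were 2-fold higher under SD, against 0.104% of all genes measured. At 12 h the numbers were 4 of 5 and 22 of 26 (2.76% of all genes), at 24 h 5 of 5 and 18 of 26 (3.75%) and at 48 h 5 of 5 and 22 of 26 (4.22%). The median log2 ratio of the 26 genes was 0.04, 1.47, 1.33 and 1.98 at 6, 12, 24 and 48 h, and that of all genes 0.02, 0.00, 0.03 and 0.00. Mrgpra2a was under the count minimum at each of these hours, and Ly6g and Mrgpra2b already differed between the methods at 6 h, in opposite directions, when the median of the list was near 0. Over the step from 24 to 48 h of SD, 2 of 6 of the genes (Ly6g and Retnlg) and 4 of 26 on the list were 2-fold higher, against 1.36% of all genes measured. Both lists were chosen with these libraries known, and the difference between them was not tested.

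Among the most abundant genes of that list were S100a9 and S100a8, the subunits of calprotectin, and Csf3r, the receptor for G-CSF. S100a9 went from 599.9 CPM in Con to 678.8, 1313, 1993 and 4376 CPM in SD 6, 12, 24 and 48 h, against 397.3 to 725.9 CPM in SASD, a course like that of Retnlg. Csf3r went the way of neither Retnlg nor Adgrg3, at 560.2 CPM in Con, 989.7, 1912, 1714 and 1227 CPM in SD and 625 to 991 CPM in SASD, highest at 12 h. Over the list, 25 of 26 genes had SD 12, 24 and 48 h above Con and all SASD libraries.

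Dividing by the summed counts of the 26 genes showed which members of the set kept pace with them. Per 100000 such counts, Mcemp1 had 569.6 to 937.9 counts and Adgrg3 126.0 to 210.9 over the 10 libraries, and neither was highest or lowest under SD. Ly6g had 28.8 to 105.6 in 9 libraries and 337.4 in SD 48 h. Retnlg had 1699 to 3451 in 9 libraries and 7050 in SD 48 h. Both thus exceeded the pace of the mature list in SD 48 h.

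Mrgpra2b had 69.9 to 121.8 counts per 100000 in the SD libraries, 111.0 in SASD 24 h and 24.8 to 52.0 in Con and the other SASD libraries. Mrgpra2a had 12.6 to 18.7 in SD and 1.57 to 11.5 in Con and SASD. Ly6g per 1000 counts of Retnlg was 15.1 (11.4 to 19.7) in Con, 13.2 (7.50 to 21.5), 36.3 (29.0 to 44.9), 30.6 (25.4 to 36.6) and 47.9 (44.4 to 51.5) in SD 6, 12, 24 and 48 h, and 20.7 to 32.6 in SASD. The interval of SD 48 h lay above those of Con, SD 6 h, SD 24 h and the SASD libraries other than 6 h, and overlapped those of SD 12 h and SASD 6 h (22.6 to 45.6).

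**Figure D3:**
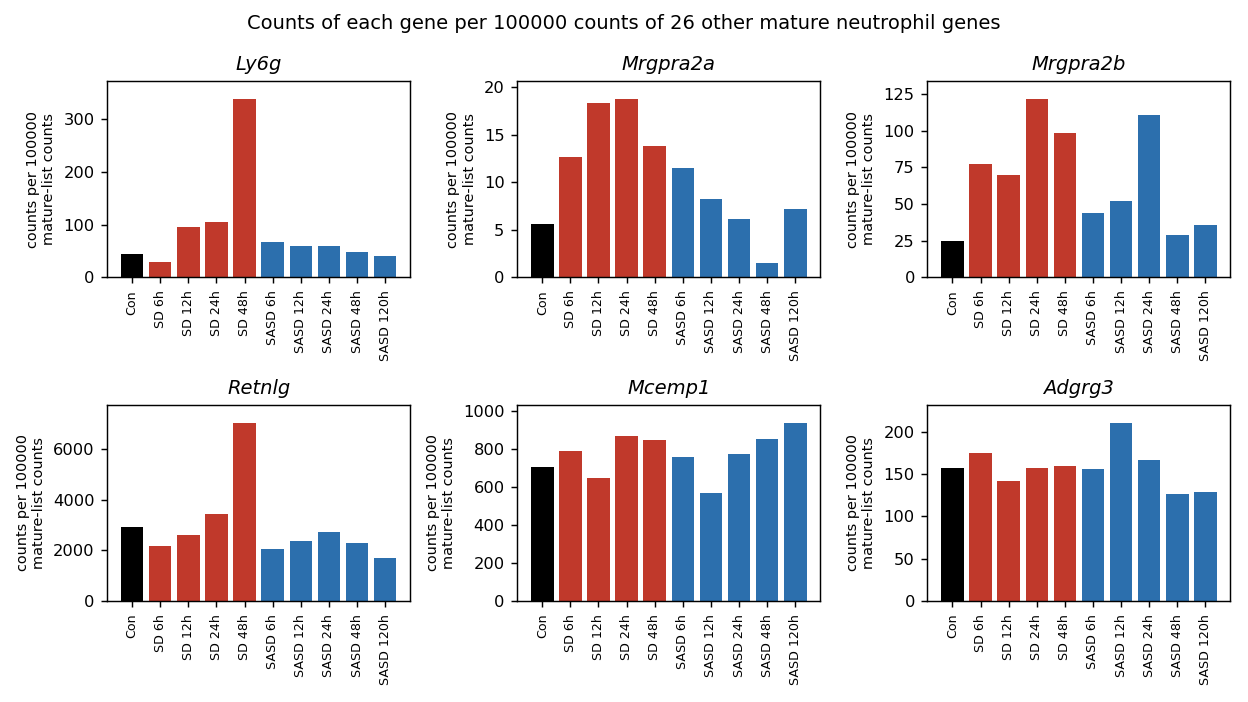
Counts of each gene per 100000 summed counts of 26 other mature neutrophil genes (linear axes from 0) in Con (black), SD (red) and SASD (blue); bars are single libraries without error bars. Ly6g and Retnlg stand out in SD 48 h at 337.4 and 7050, while Mcemp1 and Adgrg3 are at similar heights in all 10 libraries.

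Several genes transcribed in marrow precursors were higher at the last step of SD, as Ly6g and Retnlg were. The 14 granule and precursor genes summed to 2598 CPM in SD 48 h and 1395 CPM in SD 24 h, against 257.6 to 716.7 CPM in the other 8 libraries. Most of the SD 24 h sum was Chil3, Lcn2 and Ctsc, at 674.2, 436.0 and 233.7 CPM. Mpo was at 0.657 CPM there and 0.489 CPM in Con, and Ngp at 25.7 and 9.04 CPM. The 716.7 CPM, of SASD 48 h, was likewise mostly Chil3 and Ctsc, at 397.9 and 252.9 CPM. From 24 to 48 h of SD, 9 of the 13 measured were at least 2-fold higher, against 1.36% of all genes measured. The most abundant of the list, Chil3 and Ctsc, were not. Chil3, a chitinase-like protein gene, went from 674.2 to 797.7 CPM and Ctsc, which encodes cathepsin C, from 233.7 to 278.8 CPM. Of the 13 measured in the pair of SD and SASD at 48 h, 12 were at least 2-fold higher under SD, against 4.22% of all genes measured. Their median log2 ratio was 4.49. Several of the 13, such as Mpo, reached the count minimum only through SD 48 h. In the pair of SD and SASD at 24 h, 6 genes of the list reached it. These numbers and the median were thus partly set by the filter. Ngp, a granule protein gene, was at 6.20 to 25.7 CPM in 9 libraries and 466.4 CPM in SD 48 h, and Mpo, myeloperoxidase, at 0.657 CPM or less in 9 libraries and 30.2 CPM in SD 48 h. Lcn2, the granule lipocalin, was instead higher at each later hour, at 91.6, 247.4, 436.0 and 569.7 CPM in SD. Of 13 granule and precursor genes averaging 10 counts or more, 2 had SD 12, 24 and 48 h above Con and SASD, Lcn2 and Cebpe. The share over all such genes was 4.93%. The part of precursor transcripts in the Ly6g and Retnlg values was not tested.

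Of 7 transcription factor genes of the lineage, 4 had SD 12, 24 and 48 h above Con and SASD, against 4.93% of all genes. They were Spi1, Cebpd, Cebpe and Klf5, and Cebpe is also among the granule and precursor genes counted above. Spi1, which encodes PU.1, was at 111.7 CPM in Con, 197.4, 346.5, 382.4 and 271.2 CPM in SD and 153.3 to 218.0 CPM in SASD. Cebpb and Cebpd, which encode C/EBP beta and delta, were highest in SD 24 h, at 241.2 and 124.4 CPM, and were at 96.1 and 62.3 CPM in SD 48 h. None of the 6 genes was lower in SD 48 h than in SD 24 h beyond its counting interval. The part of these factors in the levels of the 6 genes was not tested.

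Lists of other blood cells were examined in the same way, for genes averaging 10 counts or more. SD 12, 24 and 48 h lay above Con and SASD for 0 of 10 monocyte, 0 of 8 B cell, 0 of 8 T cell and 0 of 6 NK cell genes. The same held for 0 of 5 platelet, 0 of 6 red cell, 0 of 4 basophil and 0 of 2 mast cell genes, and for 1 of 3 eosinophil genes. The share over all such genes was 4.93%, so a count of 0 in lists this short is near that share. That gene was Siglecf, a sialic acid receptor gene, at 11.0, 14.9 and 10.9 CPM in SD 12, 24 and 48 h, while the eosinophil granule gene Epx was at 0 in 6 libraries and at 0.580 CPM at most. Monocyte genes summed to 2610 and 2251 CPM in SD 24 and 48 h but also to 2396 CPM in SASD 48 h. In that SASD library Ly6g and Retnlg, at 2.15 and 104.0 CPM, lay inside their ranges over Con and the other SASD libraries. Mcemp1 was at 38.4 CPM there, against 26.9 CPM in Con and 38.4 CPM in SASD 24 h, its highest SASD level. The part of monocyte transcripts in the values of the 6 genes was not tested.

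Relatives of the 6 genes were examined to see whether the families moved. In the Ly6 family, 0 of 13 relatives averaging 10 counts or more separated SD 12, 24 and 48 h from Con and SASD. The share over all such genes was 4.93%. Ly6e, the broadly expressed member, was at 1159 to 1395 CPM in all libraries, Ly6d, a B lineage gene, at 109.9 to 210.4 CPM, and Ly6a, which encodes Sca-1, at 31.2 to 104.1 CPM. Ly6c2, the monocyte marker and the nearest gene to Ly6g on one side, was at 110.5 and 109.8 CPM in SD 24 and 48 h and at 42.8 to 94.5 CPM in the other 8 libraries. Ly6c2 and Ly6g thus differed at 48 h, at log2 ratios between SD and SASD of 0.22 (with a prior count of 2) and 4.55.

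In the Mrgpr family, Mrgpre alone of 17 relatives averaged 10 counts or more, and it lay at 11.1 to 16.0 CPM throughout. The other 16 relatives together had 0 to 5 counts in each of the 7 libraries other than Con and both 48 h libraries, against 15 to 143 counts of Mrgpra2b alone. In Con, however, 13 of these 16 had a count and they summed to 189 counts, in SASD 48 h 12 summed to 50, and in SD 48 h 5 summed to 13. Mrgpra2b and Mrgpra2a, at 31 and 7 counts in Con, were thus no higher there than Mrgprd at 54 and Mrgpra9 at 33 counts, receptors of sensory neurons. In SASD 48 h Mrgpra2b, at 1.30 CPM, exceeded the highest of these 16, Mrgprd at 0.458 CPM. Whether part of the Mrgpra2 counts in Con was of the same kind was not tested.

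The other resistin genes were low: Retn was at 1.34 to 5.66 CPM, highest in SASD 24 h, and Retnla and Retnlb at 0.604 CPM or less. Among adhesion receptors, Adgrg1, which lies 3474 bases before Adgrg3, was at 53.5 to 456.8 CPM and highest in SASD 24 h, and Adgrg5 at 17.4 to 33.3 CPM. Dzip3, the nearest gene to Retnlg away from the resistin genes, was at 11.2 to 21.1 CPM and lowest in SD 48 h. Among the 2 protein-coding genes on each side of the 6 genes, Fcor was the only one outside the set with SD 12, 24 and 48 h above Con and SASD. It ends 1928 bases beyond Mcemp1 on the other strand, and stood at 0.855 CPM in Con, 0.477, 1.21, 2.25 and 1.37 CPM in SD and 0.434 to 0.846 CPM in SASD. With a mean of 13.4 counts a library, and with reads counted without regard to strand, this likeness to Mcemp1 is uncertain. Retn, 5643 bases on the other side of Mcemp1, did not follow it.

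**Figure D4:**
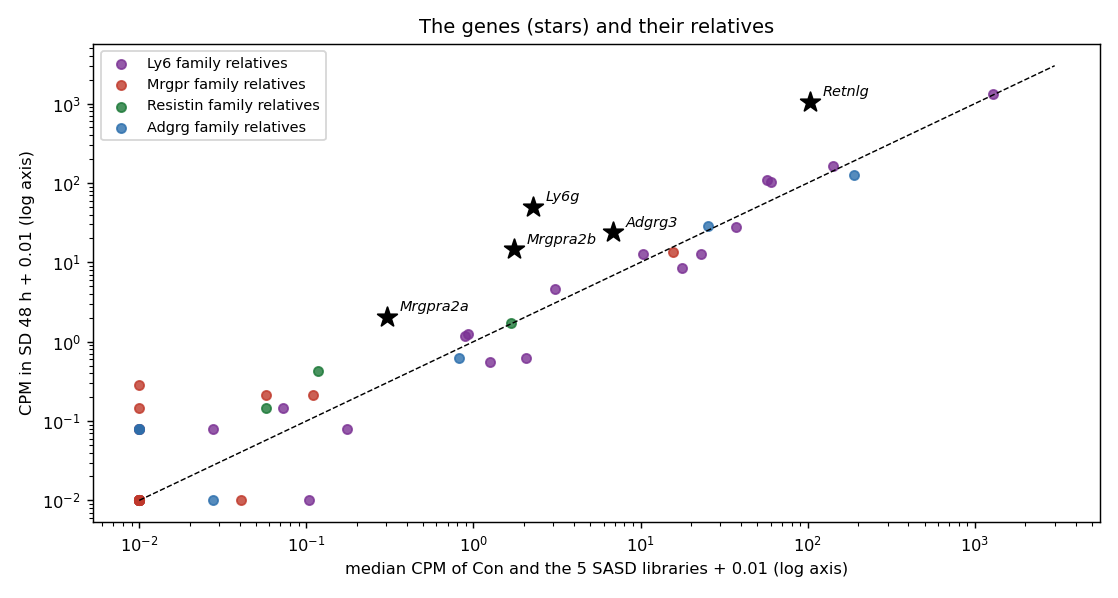
CPM in SD 48 h against the median CPM of Con and the 5 SASD libraries, with 0.01 added to each, on log axes; black stars are Ly6g, Mrgpra2a, Mrgpra2b, Retnlg and Adgrg3 and coloured points their family relatives. The dashed line marks equal levels: the stars lie above it and most relatives with more than 1 CPM lie near it, while a few Ly6 family relatives lie below it.

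Fits over time combined libraries in place of single pairs, for SD against SASD the 8 libraries of the 4 shared hours (time as a factor, without Con and SASD 120 h). The fitted log2 ratio of SD over SASD common to the 4 shared hours was 2.22 ± 0.79 (SE) for Ly6g, 2.52 ± 0.66 for Mrgpra2a, 1.91 ± 0.42 for Mrgpra2b, 1.57 ± 0.45 for Retnlg, 1.16 ± 0.23 for Mcemp1 and 1.05 ± 0.28 for Adgrg3. It is the coefficient of a model of counts, not a mean of the 4 log2 ratios. Ly6g had the widest error, as its ratio ran from below 1 to 23.5. Without the 48 h libraries the fitted log2 ratio of Ly6g was 1.06 ± 0.56 and that of Retnlg 1.03 ± 0.25, and without the 6 h libraries 3.11 ± 0.58 and 2.04 ± 0.41. Adgrg3 was at 0.67 ± 0.21 without the 48 h libraries. At an adjusted p of 0.05, edgeR's quasi-likelihood test called 0 of 13370 genes (0%) in this fit. Unadjusted, 1082 genes had p under 0.05; limma-voom called 0 and DESeq2 169. The 26 other mature neutrophil genes had a median log2 ratio of 1.23, with 26 of 26 above 0, beside a median of -0.0033 and 49.2% above 0 over all genes tested.

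Over Con and the 4 SD libraries, the log2 slope per doubling of (1 + hours / 6) was 1.59 ± 0.20 for Ly6g, 1.22 ± 0.19 for Mrgpra2b, 1.03 ± 0.14 for Retnlg, 1.01 ± 0.31 for Mrgpra2a, 0.72 ± 0.06 for Mcemp1 and 0.62 ± 0.06 for Adgrg3. EdgeR called 18 of 14562 genes (0.124%), all with positive slopes, and Mcemp1 and Adgrg3 were among them; since the set was chosen on these libraries, nothing is read from that count. Without SD 48 h the slope of Ly6g was 1.32 ± 0.29 and that of Mrgpra2b 1.59 ± 0.16, so the order of the pair turned. Without Con it was 1.95 ± 0.23 for Ly6g and 0.55 ± 0.29 for Mrgpra2a. Of the 26 other mature neutrophil genes, 2 were called, Mmp8 (0.99 ± 0.09, edgeR adjusted p = 0.0411) and Fpr1 (0.83 ± 0.08, edgeR adjusted p = 0.0411), a neutrophil collagenase and a formyl peptide receptor; 26 of 26 slopes were above 0, beside 46.3% of all genes tested. Calls in this fit depended on single libraries: 0 genes were called without SD 6, 12 or 24 h, 53 without Con and 511 without SD 48 h.

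Over Con and the 5 SASD libraries, slopes were -0.09 ± 0.14 for Ly6g, 0.05 ± 0.29 for Mrgpra2b, -0.13 ± 0.08 for Retnlg, 0.09 ± 0.07 for Mcemp1 and -0.11 ± 0.09 for Adgrg3, each within 2 standard errors of 0. Mrgpra2a fell under the mean count of 10 in this fit and was not tested. None of 14602 genes (0%) was called by edgeR (0), DESeq2 or limma-voom, and 443 had an unadjusted p under 0.05 in edgeR. The trends under SD and SASD share the Con library, and the difference between them was not tested.

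Genes with courses most like those of the set were sought among 10859 other genes averaging 50 counts or more, by the root mean square difference of the log2 profiles over the 10 libraries, each centred on its own mean (median over all candidates 1.04). Within the set, Mcemp1 and Adgrg3 were closest, at 0.37, then Ly6g and Retnlg at 0.50, and Ly6g and Adgrg3 farthest, at 0.92. Nearest to Ly6g were Upp1, which encodes uridine phosphorylase, Wfdc21, Cd14, the lipopolysaccharide coreceptor, Ifitm1 and Steap4, at 0.49 to 0.59. Wfdc21 was also nearest to Retnlg, at 0.32, followed by Fpr2, Gm5483, S100a9 and Atp11a. Wfdc21 was at 5.22 CPM in Con, 7.16, 14.8, 21.7 and 80.0 CPM in SD and 3.04 to 5.71 CPM in SASD, with the same late step.

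Nearest to Mrgpra2b were Lcn2, Chil1, Il1rap, Mmp8 and Hdc, at 0.32 to 0.45, and Lcn2 shared its higher level in SASD 24 h, at 142.0 CPM against 32.1 to 85.9 CPM in the other SASD libraries. Nearest to Mrgpra2a were Piwil2, Il1r2, Lilr4b, Cd300lf and Foxd4, at 0.31 to 0.39. For Mcemp1 they were Gm14548, Mtus1, App, Tlr2 and Nfil3, at 0.17 to 0.20, and for Adgrg3 Dgat1, Clec4d, C5ar1, Pglyrp1 and Egln3, at 0.20 to 0.25. The 10 nearest to the mean profile of the 5 genes that reach that average were Mmp8, Trem1, Cxcr1, Mmp25, Clec4e, Fpr2, Fpr1, Tarm1, Chil1 and Bst1, at 0.23 to 0.32. Only 1 of these 10 remained among the nearest 10 when Con and both 48 h libraries were left out, so the ranking rests on those libraries.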

How the data were processed

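RNA from blood of pooled mice was sequenced in 10 libraries. The submitters' processing notes name Trimmomatic 0.39, STAR 2.7.9a and the build mm10. The authors ran featureCounts 2.0.3 on exons with read pairs as the unit, per the file headers, with no strand option and without reads that map to several places or genes. The deposited values are raw counts of 32285 genes. GENCODE release M21 gave a symbol to 32158 of them and was used for names, positions and exon lengths. Of 158 list entries 156 matched; Ly6g2 and Ly6m were not analysed here.

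The members of the set and the gene lists were chosen with earlier results of these data known. TMM factors and quasi-likelihood fits came from edgeR 4.0.16 (R 4.3.3), on genes averaging 10 counts or more in the fit's libraries, with Benjamini-Hochberg adjustment over all genes and a threshold of 0.05. SD against SASD used 8 libraries with time as a factor (3 residual degrees of freedom); trends used slopes on log2(1 + hours / 6) in Con with 4 SD (3) or 5 SASD (4) libraries. The spread is that between pooled libraries and times. The SE of an edgeR estimate was derived from the F statistic of its test. The fits were tested on simulated data. Single libraries were compared by ratios of TMM-scaled CPM with exact conditional binomial 95% intervals, and levels with exact Poisson ones (scipy 1.17.1, Python 3.11.15); reads without molecular identifiers are not independent molecules, so all cover counting error only. Ranked genes and list medians used a prior count of 2 and, in pairs, a mean count of at least 25. Named from each list were the 4 genes of highest mean CPM, family relatives with a mean count of at least 10, 2 protein-coding neighbours on each side and the 5 nearest profiles per gene (10 for the mean). A gene that this rule names is not reported here. Mpo, Epx, Mcpt4, Tpsab1, Mrgprd, Mrgpra9, Retnla, Retnlb, Cebpe, Klf5, Mmp8 and Fpr1 were singled out with their values known. Alternatives were RLE size factors, total counts, no count filter, DESeq2 1.42.0, limma-voom (limma 3.58.1), linear hours, each library or time left out, other prior counts and filters, and, chosen after seeing the data, a term for the split of the libraries and fits without Con and 48 h.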

Additional observations from a re-analysis of the deposited data

How the results depend on the processing

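The labels give no replicate numbers to block on; SD against SASD already matched the libraries by hour. For SD against SASD, where edgeR called 0 genes, 389 were called with no count filter, 169 by DESeq2 and 0 to 237 with one time left out, 237 of them without 6 h. For the SD trend, where 18 were called, the number was 63 with no count filter, 456 by DESeq2, 69 by limma-voom, 0 with linear hours, 0 to 511 with one library left out, 796 with a term for the split of the libraries and 314 without Con and 48 h, the latter 2 chosen after seeing the data. For the SASD trend, where 0 were called, the range with one library left out was 0 to 1. The cause of these differences was not tested. No estimate of the 6 genes changed sign in SD against SASD or the SD trend under any alternative run. Over these, Ly6g ranged from 1.06 to 3.11 for SD against SASD and from 1.32 to 1.95 for the SD slope, and Adgrg3 from 0.67 to 1.30 and from 0.58 to 0.66. SASD slopes of Ly6g (-0.29 to 0.05), Mrgpra2b (-0.29 to 0.41) and Retnlg (-0.19 to 0.0037) took either sign. Depth limits Mrgpra2a most, with 2 to 30 counts.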
